A study of Mus musculus with 14 samples.

Results

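The 9 genes around transforming growth factor beta (TGF-beta) and the bone morphogenetic proteins (BMPs) were followed in kidney RNA of females of the outbred CD-1 stock. They are the TGF-beta ligands Tgfb1, Tgfb2 and Tgfb3, the BMP ligands Bmp2, Bmp4 and Bmp7, the BMP antagonist Grem1, the inhibitory Smad gene Smad7 and the matricellular gene Ccn2. The list was fixed by name, each symbol was matched to 1 Ensembl gene ID, and all 9 were among the 22339 genes, of 56980 gene IDs, that had a total of more than 10 counts. RNA was sequenced from whole kidneys of 14 wild type mice aged 18 weeks, with 1 library for each mouse. Shortly before the kidneys were taken, the mice of the study were injected with cationic ferritin for imaging. Some were also given labelled sinistrin, a tracer of kidney filtration. Term non-diabetic mice (T-ND, n = 4) were born naturally, stayed with their own mothers and had no STZ (streptozotocin). Term diabetic mice (T-D, n = 4) were born in the same way and were given streptozotocin (STZ), a toxin of the insulin-producing beta cell, as young adults. Preterm non-diabetic mice (PT-ND, n = 3) were delivered early by Caesarean section, were raised by foster mothers that had been given acepromazine, and had no STZ. Preterm diabetic mice (PT-D, n = 3) had the same early life and STZ. Preterm birth therefore stands for the delivery, the fostering and the drug as well, and some of the female PT-D mice of the study, but none of the T-D mice, had a repeat course of STZ. The sources used here do not tell which mice had it.

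TGF-beta ligands are secreted in a latent form and, once released, signal through the receptors encoded by Tgfbr1 and Tgfbr2 to Smad2 and Smad3. BMP ligands signal through receptors such as those encoded by Bmpr1a and Bmpr2 to Smad1, Smad5 and Smad9 and switch on the Id genes. In the kidney, TGF-beta signalling is best known for driving deposition of matrix in glomeruli and interstitium, while Bmp7 is needed for nephron formation and is often described as its counterweight. Grem1 encodes gremlin 1, a secreted protein that binds and blocks BMPs, Smad7 encodes an inhibitor of both branches that is itself a target of TGF-beta, and Ccn2 encodes connective tissue growth factor, a target of TGF-beta and of the YAP and TEAD pathway.

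The libraries held between 16697246 and 28673176 counts on genes (median 18765582). Counts that fell on the mitochondrial genome made up 8.53% to 16.92% of them. The names of 5 libraries carry a suffix a, whose meaning the labels do not give. In T-ND these are replicates 1 and 2, in PT-ND it is replicate 2, and in T-D and in PT-D it is replicate 1, so each group held libraries of both kinds. The summed normalized counts of 7 proximal tubule markers lay between 150000 and 217000 in every group, and those of 6 adrenal cortex markers between 41.6 and 97.0, with Cyp11b1 and Cyp11b2 at 0 in all 14 libraries. Markers of adipose tissue were uneven within every group, with sums from 4.8 to 4840.

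The promoter of Grem1 is shown because this gene had the largest fold change of the 9. It is the 250 bases before the start of the gene's canonical transcript, written 5′ to 3′ on the gene's own strand and read from the GRCm39 genome at chr2:113589001-113589250 (minus strand). Capitals mark the motifs searched on either strand, GGAATG, the core bound by TEAD factors, and CAGAC, a form of the Smad box.
Grem1: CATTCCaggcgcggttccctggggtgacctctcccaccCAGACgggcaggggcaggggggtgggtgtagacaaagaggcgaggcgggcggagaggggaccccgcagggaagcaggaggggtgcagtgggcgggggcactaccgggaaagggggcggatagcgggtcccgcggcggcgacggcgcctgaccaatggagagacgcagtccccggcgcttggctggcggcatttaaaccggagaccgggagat
The Grem1 promoter held 1 match to each motif, the GGAATG match on the opposite strand. Among 16165 promoters of the same length, 12.0% held GGAATG at least once and 41.9% held CAGAC. A match is a run of letters and not a measured binding site.

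**Figure D1:**
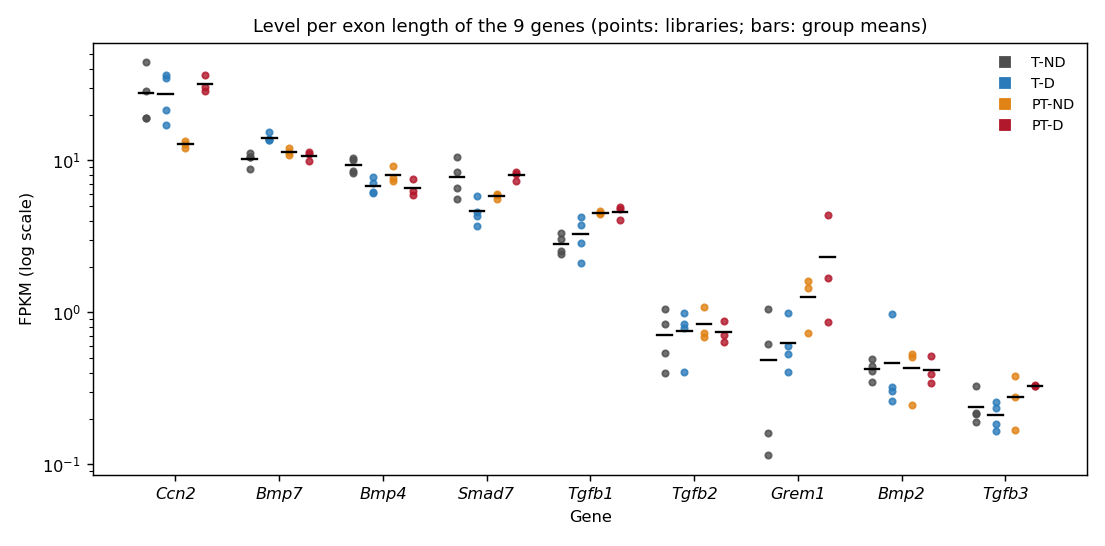
Counts scaled by exon length and library size (FPKM, log scale) of the 9 genes, with 1 point per library and a bar at each group mean. Ccn2 had the highest mean in every group, from 12.7 in PT-ND to 31.8 in PT-D, and Tgfb3 the lowest.

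Set on a scale that accounts for exon length, Ccn2 had the highest mean of the 9 genes in all 4 groups, though in PT-ND its range overlapped that of Bmp7, so the pair could not be put in order there. In T-ND its level was 27.7 ± 11.8 FPKM (SD, n = 4), followed by Bmp7 at 10.3 ± 1.03, Bmp4 at 9.28 ± 1.05 and Smad7 at 7.77 ± 2.22. Tgfb1 came next at 2.83 ± 0.418 FPKM and was well above the other two TGF-beta ligands, with Tgfb2 at 0.709 ± 0.295 and Tgfb3 at 0.237 ± 0.0608. Grem1 had 0.485 ± 0.437 FPKM and Bmp2 0.423 ± 0.0616. The ranges of Bmp7 and Bmp4, of Bmp4 and Smad7, of Tgfb2 and Grem1, and of Grem1 and Bmp2 overlapped among the T-ND libraries, so those neighbours could not be put in order. In PT-D the order differed in that Smad7 stood above Bmp4 and Grem1 above Tgfb2, and both of these neighbouring ranges overlapped there. The Ccn2 and Bmp4 levels may be too low by an unknown amount. In GENCODE release 39, 36.5% and 31.1% of their exon bases are shared with exons of other genes. Reads that fell on more than 1 gene were not counted, and the counts were made on release 36.

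For the 9 genes, 6 comparisons were made, 5 between pairs of groups and 1 of the STZ effect in preterm mice with that in term mice. They use the same libraries in different pairs and are not independent of each other. Ccn2 rose with STZ in preterm mice, Tgfb1 in PT-D exceeded its level in T-ND, and the STZ effect on Smad7 differed between preterm and term mice. Between PT-D and T-ND 1 of the 9 genes passed at an adjusted p-value under 0.05 in edgeR's quasi-likelihood test, where 2.76% of all genes tested did. Between PT-D and PT-ND 1 of 9 passed, where 12.9% of all genes did, and in the comparison of STZ effects 1 of 9, where 6.23% did. These shares of members rest on 1 gene each and are read gene by gene. Between PT-D and T-D none of the 9 passed (all genes, 0.193%). By edgeR 3 of them had an unadjusted p under 0.05, where 22.3% of all genes did, and 3 passed by DESeq2, where 10.2% of all genes did. Between T-D and T-ND none passed (all genes, 0.0673%), with 3 under 0.05 unadjusted by edgeR (all genes, 11.8%) and 1 called by DESeq2 (all genes, 2.1%). Between PT-ND and T-ND none passed (all genes, 0.0809%), with 2 under 0.05 unadjusted by edgeR (all genes, 10.7%) and 2 called by DESeq2 (all genes, 1.38%).

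**Figure D2:**
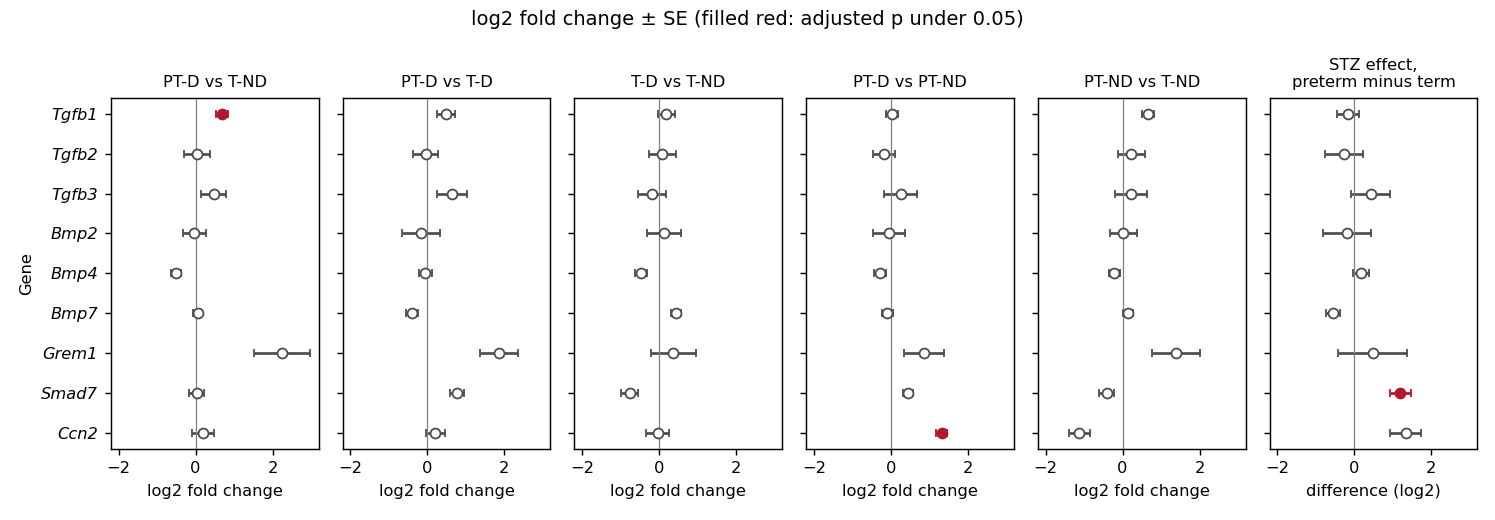
log2 fold change with its standard error for the 9 genes in each pair of groups, with the last panel showing the STZ log2 fold change in preterm mice minus that in term mice. Filled red points passed at an adjusted p-value under 0.05, which were Tgfb1 in PT-D against T-ND, Ccn2 in PT-D against PT-ND and Smad7 in the last panel.

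**Figure D3:**
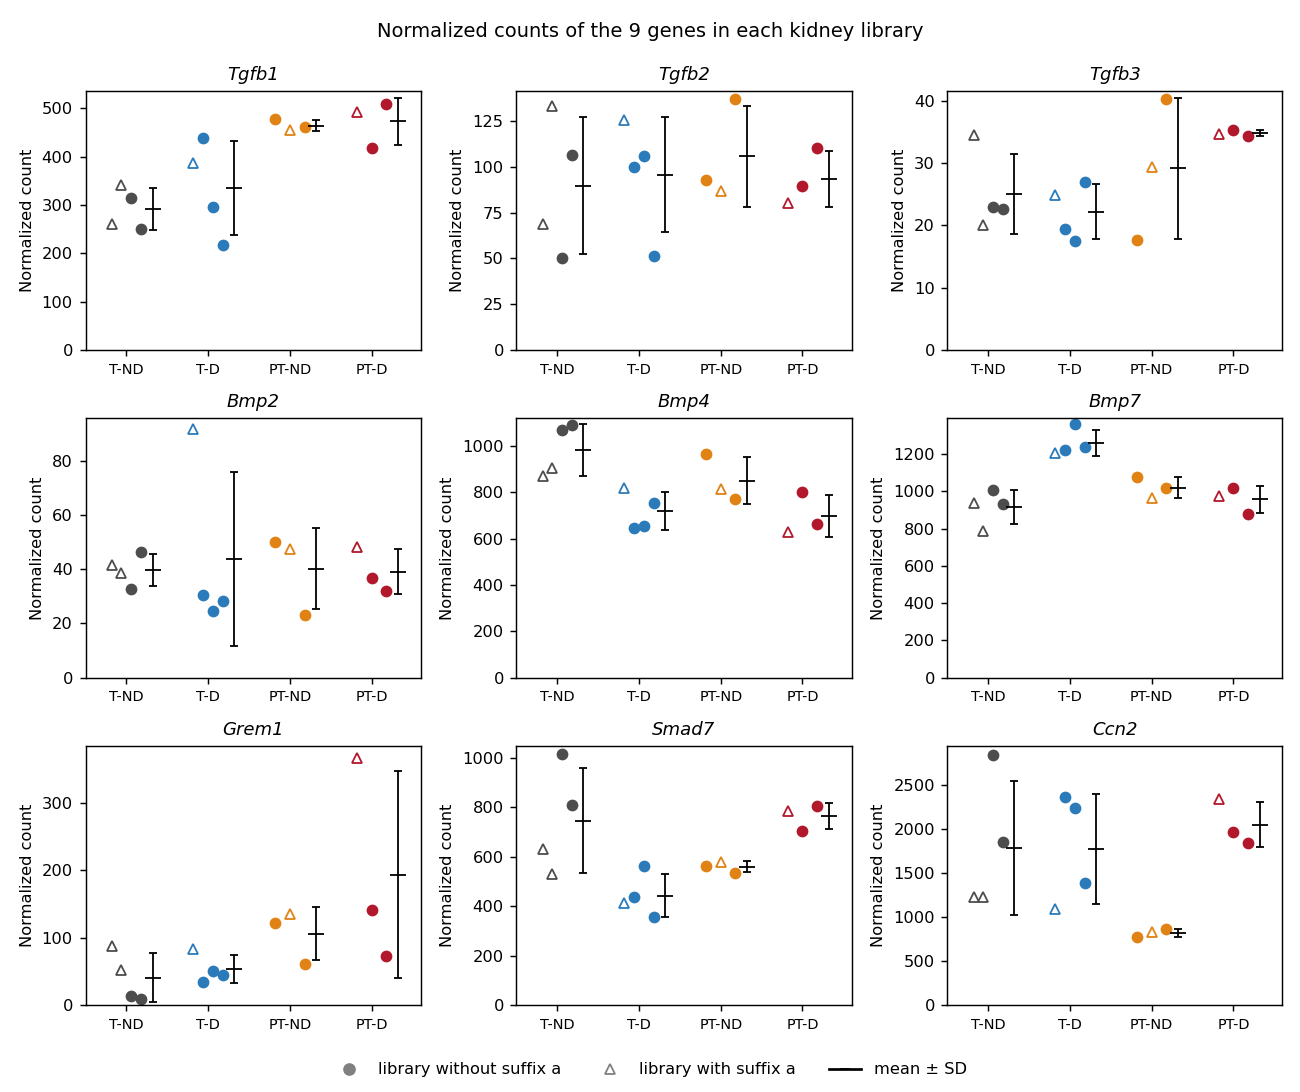
Normalized counts of the 9 genes in each of the 14 libraries, with the mean and SD of each group beside the points. Open triangles are libraries with the suffix a. The 3 PT-ND libraries of Ccn2 lie between 772 and 861, below every other library, and the Grem1 triangle of PT-D stands at 366.6.

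Tgfb1 (ENSMUSG00000002603.16, GRCm39 chromosome 7 from 25386390 to 25404506) encodes the main TGF-beta ligand of the injured kidney. Its normalized counts were 260, 341, 313 and 250 in the T-ND libraries, 387, 439, 296 and 218 in T-D, 477, 455 and 460 in PT-ND, and 492, 418 and 509 in PT-D. All 6 preterm libraries stood above all 4 T-ND libraries, and only T-D replicate 2 reached into the preterm range. Tgfb1 in PT-D exceeded T-ND by 1.61-fold (log2 fold change 0.69, SE 0.16, adjusted p = 0.0491). In PT-ND against T-ND the log2 fold change was almost as large at 0.67 (SE 0.15) but the adjusted p was 0.2 by edgeR, against 0.0153 by DESeq2. STZ moved it little within either birth group, with a log2 fold change of 0.03 (SE 0.15) in preterm mice and 0.18 (SE 0.22, adjusted p = 0.776) in term mice. The call between PT-D and T-ND sits at the threshold. It was lost in 6 of the 7 fits that left out 1 library, all but the fit without T-ND replicate 3, with adjusted p-values up to 0.158, and without the suffix libraries the log2 fold change was 0.70 with an adjusted p of 0.16. In whole tissue, more cells that express a gene and more RNA per cell cannot be told apart.

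Tgfb2 (ENSMUSG00000039239.15, chromosome 1 from 186354985 to 186438294) and Tgfb3 (ENSMUSG00000021253.8, chromosome 12 from 86102756 to 86126301) encode the other two ligands of the family. Tgfb2 had between 50.3 and 137 normalized counts, and its groups overlapped throughout, with log2 fold changes from −0.18 to 0.23 in the pairs of groups and adjusted p-values of 0.735 or more. Tgfb3 had at most 40.4 normalized counts. Its counts in PT-D, 34.7, 35.4 and 34.4, were above all T-D counts, which lay between 17.5 and 27, and the log2 fold change was 0.64 (SE 0.38, adjusted p = 0.342). Raw counts of Tgfb3 went down to 16 in a library.

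Bmp4 (ENSMUSG00000021835.16, chromosome 14 from 46620250 to 46636745) encodes a BMP ligand of the kidney stroma and collecting system. It had 871, 906, 1067 and 1091 normalized counts in T-ND, 820, 646, 656 and 753 in T-D, 967, 815 and 770 in PT-ND and 629, 802 and 662 in PT-D. Every T-D and every PT-D library was below every T-ND library. The log2 fold change against T-ND was −0.47 (SE 0.15, adjusted p = 0.268) in T-D and −0.50 (SE 0.14, adjusted p = 0.0714) in PT-D, and neither passed. With the suffix as a covariate, the adjusted p in PT-D was 0.0412, and by DESeq2 it was 0.0173.

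Bmp7 (ENSMUSG00000008999.8, chromosome 2 from 172709805 to 172782410) encodes the BMP of the nephron epithelium. Its normalized counts were 939, 788, 1006 and 934 in T-ND and 1208, 1223, 1364 and 1241 in T-D, without overlap. In the preterm groups they were 1075, 965 and 1020 without STZ and 977, 1017 and 878 with it, which overlap. The STZ log2 fold change was 0.44 (SE 0.13, adjusted p = 0.253) in term mice, which passed by DESeq2 (adjusted p = 0.0276), and −0.09 (SE 0.14, adjusted p = 0.713) in preterm mice. The difference between these was −0.55 (SE 0.17) with an adjusted p of 0.0652, which passed by DESeq2 and with the filterByExpr filter.

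Bmp2 (ENSMUSG00000027358.7, chromosome 2 from 133394079 to 133404816) was the least abundant of the 3 BMP ligands among the members, with 23.1 to 50.1 normalized counts in 13 libraries and 91.7 in T-D replicate 1. Its log2 fold changes lay between −0.16 and 0.13 in the pairs of groups, with adjusted p-values of 0.885 or more. Without T-D replicate 1, the log2 fold change between T-D and T-ND was −0.54 in place of 0.13.

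Grem1 (ENSMUSG00000074934.4, chromosome 2 from 113576509 to 113589000) showed the widest spread of the 9 genes. It had 87.9, 52.1, 13.6 and 9.67 normalized counts in T-ND, 82.7, 34.1, 50.3 and 45.0 in T-D, 122.0, 134.6 and 61.2 in PT-ND, and 366.6, 141.4 and 72.8 in PT-D. The PT-D range began below the top of both term groups, and the PT-D mean of 194 ± 154 (SD, n = 3) rested mainly on replicate 1. Against T-D the fold change was 3.65 (log2 1.87, SE 0.49, adjusted p = 0.0851) and against T-ND 4.74 (log2 2.24, SE 0.73, adjusted p = 0.105), and neither passed in edgeR's quasi-likelihood test. The difference from T-D passed by DESeq2 (adjusted p = 0.00783) and by edgeR with no filter on counts (adjusted p = 0.00341), and the difference from T-ND passed with no filter (adjusted p = 0.0478). Without PT-D replicate 1 the log2 fold change against T-D was 1.00 with an adjusted p of 0.231. The study singled out Grem1 from these same libraries, so its direction here is not independent evidence.

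The highest Grem1 count of each of the 4 groups was in a library with the suffix a, which was true of none of the other 8 genes. Among the 9 libraries without the suffix, Grem1 had 13.6 and 9.67 normalized counts in T-ND, 34.1, 50.3 and 45.0 in T-D, 122.0 and 61.2 in PT-ND, and 141.4 and 72.8 in PT-D. In these libraries no T-ND library reached T-D and no T-D library reached either preterm group, while PT-ND and PT-D overlapped. A fit on them alone gave log2 fold changes of 3.18 for PT-D against T-ND (adjusted p = 0.0581), 1.29 for PT-D against T-D (adjusted p = 0.148) and 2.96 for PT-ND against T-ND (adjusted p = 0.115). With the suffix as a covariate over all libraries of a pair, PT-D against T-ND passed at 2.81 (adjusted p = 0.0108) and PT-D against T-D did not at 1.56 (adjusted p = 0.104). The share of counts on the mitochondrial genome moved with Grem1 as well. It was 16.92% in PT-D replicate 1, where Grem1 was highest, and 8.53% and 9.50% in T-ND replicates 3 and 4, where Grem1 was lowest. The part of the suffix and of the mitochondrial share in the Grem1 differences was not tested.

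**Figure D4:**
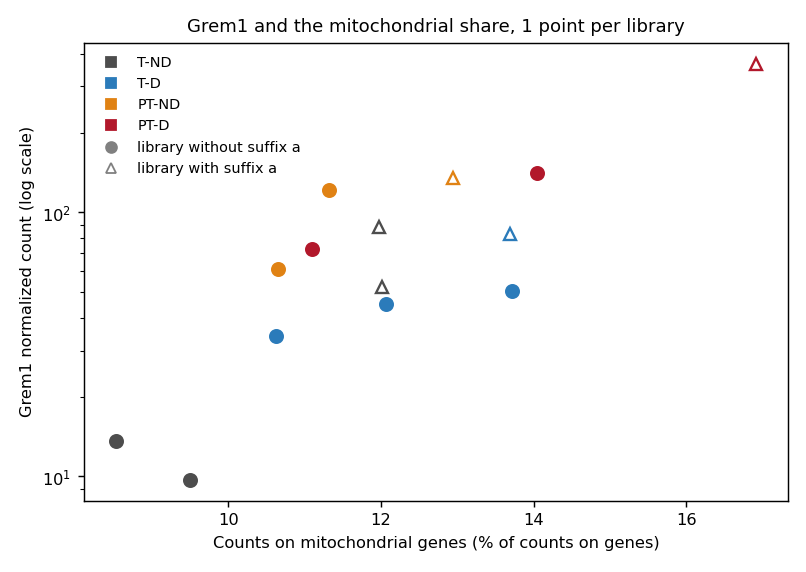
Grem1 normalized count (log scale) against the percentage of counts on mitochondrial genes, with 1 point for each of the 14 libraries, colours for the groups and open triangles for libraries with the suffix a. PT-D replicate 1 is at the upper right with 16.92% and 366.6 counts, and the 2 T-ND libraries without the suffix are at the lower left.

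Ccn2 (ENSMUSG00000019997.12, chromosome 10 from 24471333 to 24474900) gave the clearest separation. Its normalized counts were 772, 831 and 861 in PT-ND and 2338, 1966 and 1847 in PT-D, so that the lowest PT-D library was far above the highest PT-ND library. The fold change was 2.50 (log2 1.32, SE 0.15, adjusted p = 0.00178 by edgeR's quasi-likelihood test). It passed in all 6 fits that left out 1 library, with log2 fold changes from 1.22 to 1.39 and adjusted p-values from 0.00156 to 0.0133, and in all 9 other alternatives, with adjusted p-values up to 0.0203. Without the suffix libraries the log2 fold change was 1.22 (adjusted p = 0.0106).

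The term groups had no such separation. Ccn2 had 1231, 1226, 2842 and 1854 normalized counts in T-ND and 1094, 2362, 2241 and 1384 in T-D, and the log2 fold change was −0.03 (SE 0.30, adjusted p = 0.98). In both term groups, the libraries with the suffix a were the lowest. PT-D lay inside the T-ND range, with a log2 fold change of 0.19 (SE 0.28, adjusted p = 0.71). PT-ND was the group that stood apart, with all 3 libraries below all 11 others. The log2 fold change of PT-ND against T-ND was −1.12 (SE 0.27, adjusted p = 0.224), which did not pass by edgeR with the count filter. It passed by DESeq2 (adjusted p = 0.0096) and by edgeR with no filter on counts (adjusted p = 0.0494), and in 0 of 7 fits that left out 1 library. The STZ effect in preterm mice exceeded that in term mice by 1.33 on the log2 scale (SE 0.41, adjusted p = 0.0611), which did not pass by edgeR. It passed in 3 of 8 alternatives, by DESeq2 (adjusted p = 0.0201), with no filter on counts (adjusted p = 0.0204) and with the suffix as a covariate (adjusted p = 0.0439). Of the 14 fits without 1 library it passed in 1, the fit without T-D replicate 2.

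Smad7 (ENSMUSG00000025880.12, chromosome 18 from 75500374 to 75529006) differed in its response to STZ by birth group. It had 630, 532, 1015 and 808 normalized counts in T-ND and 413, 439, 563 and 357 in T-D, where only T-D replicate 3 was above the lowest T-ND library. In preterm mice it had 564, 580 and 535 without STZ and 784, 706 and 803 with STZ, without overlap and in the opposite direction. The STZ log2 fold change was −0.77 (SE 0.22, adjusted p = 0.232) in term mice and 0.45 (SE 0.14, adjusted p = 0.0572) in preterm mice, neither of which passed. Their difference was 1.20 (SE 0.28, adjusted p = 0.0301 by edgeR's quasi-likelihood test) and passed. It kept its sign in all 14 fits that left out 1 library, from 1.01 to 1.34, and passed in 9 of them. The call was lost without T-ND replicate 4, without PT-ND replicate 2 or 3 and without PT-D replicate 2 or 3, with adjusted p-values up to 0.0816. It passed in 7 of the 8 other alternatives. It was 1.46 without the suffix libraries (adjusted p = 0.0909). PT-D exceeded T-D by 0.78 on the log2 scale (SE 0.18, adjusted p = 0.0716), with all 3 PT-D libraries above all 4 T-D libraries. That difference passed by DESeq2 (adjusted p = 0.00706), with no filter on counts and in the joint fit, and the STZ effect in preterm mice passed by DESeq2 (adjusted p = 0.0393) and with the filterByExpr filter.

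The other genes of the pathway were taken from 8 lists, which hold 110 genes in all, of which 100 could be tested. Between PT-D and PT-ND 19 of the 100 passed, against 12.9% of all genes. In the same comparison, 7.14% of all genes were called higher and 5.78% lower, a balance that turned to more lower than higher calls under upper quartile normalization (43.0% of calls higher in place of 55.3%). Between PT-D and T-ND 7 passed, against 2.76% of all genes, of which 1.61% were higher and 1.15% lower (46.9% of calls higher under upper quartile normalization in place of 58.3%). In the comparison of STZ effects 7 passed, close to the 6.23% of all genes. In PT-D against T-D none of the 100 passed by edgeR. There 27 had an unadjusted p under 0.05 and DESeq2 called 11, both close to the shares of all genes (22.3% and 10.2%). In T-D against T-ND none passed, with 19 and 6 in the same terms (all genes, 11.8% and 2.1%), and in PT-ND against T-ND none, with 14 and 3 (all genes, 10.7% and 1.38%). In the 9 libraries without the suffix, the numbers that passed were 15 between PT-D and PT-ND, 2 between PT-D and T-ND and 0 for the difference of STZ effects, on fewer libraries.

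Some receptor genes rose in PT-D against PT-ND. Of 14 receptor genes 4 rose, none fell and 10 did not pass, where 12.9% of all genes passed. Their median log2 fold change was 0.50 against 0.05 for all genes. Tgfbr1, the signalling receptor of TGF-beta, had 925, 697 and 625 normalized counts in PT-ND and 1160, 1328 and 1513 in PT-D (log2 fold change 0.83, SE 0.18, adjusted p = 0.0162). Tgfbr2, its ligand-binding partner, had 1245, 1045 and 765 in PT-ND and 1430, 2249 and 2713 in PT-D (1.06, SE 0.24, adjusted p = 0.0195). No PT-ND library reached PT-D for either gene. Acvr2a, an activin and BMP receptor, rose by 0.82 (SE 0.21, adjusted p = 0.0273) and the BMP receptor Bmpr1a by 0.52 (SE 0.15, adjusted p = 0.0489). For Bmpr1a, PT-ND was the group apart, with 894 to 991 normalized counts. T-ND had 1258 to 1434, and PT-D, with 1187 to 1607, overlapped T-ND. Acvr2a had 334 to 439 in T-ND, 201 to 337 in PT-ND and 418 to 518 in PT-D. Bmpr2 had a log2 fold change of 0.52 (SE 0.17) and did not pass (adjusted p = 0.074). Under RLE and under upper quartile normalization 3 receptors passed. In the libraries without the suffix only 1 of the 14 passed by edgeR, on fewer libraries. It was Tgfbr2 (adjusted p = 0.0197), while Tgfbr1 (0.0584), Acvr2a (0.0921) and Bmpr1a (0.1) were lost. Tgfbr1 and Tgfbr2 each passed in 3 of 6 fits that left out 1 library and were lost without PT-ND replicate 2 or 3 and without PT-D replicate 3 (adjusted p up to 0.0722). Acvr2a was lost without these and without PT-D replicate 2, and Bmpr1a passed only without PT-D replicate 1. In the comparison of STZ effects, Acvr2a (difference 1.32, adjusted p = 0.0239), Bmpr1a (0.71, adjusted p = 0.0367), Tgfbr1 (0.95, adjusted p = 0.0449) and Acvr1 (1.00, adjusted p = 0.0478) were higher in preterm mice. Of the 14 fits without 1 library, Acvr2a passed in 11, Bmpr1a and Tgfbr1 in 5 and Acvr1 in 2. Without the suffix libraries none of these 4 passed by edgeR, with adjusted p-values from 0.0976 to 0.185.

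The BMP target list moved the other way. Of its 8 genes 5 fell, none rose and 3 did not pass between PT-D and PT-ND, where 12.9% of all genes passed. Their median log2 fold change was −1.23, and the same number passed under RLE and upper quartile normalization. Of the 5, 4 are the Id genes, which encode inhibitors of basic helix-loop-helix factors. Id4 had 784, 1059 and 931 normalized counts in PT-ND and 146, 337 and 262 in PT-D (log2 fold change −1.89, SE 0.26, adjusted p = 0.00383). Id2 had 5066, 5563 and 8784 in PT-ND and 3405, 2042 and 2318 in PT-D (−1.32, SE 0.25, adjusted p = 0.00974). Id1 fell from 1513, 1375 and 3020 to 918, 758 and 492 (−1.45, SE 0.31, adjusted p = 0.0155), and Id3 from 1262, 1478 and 2701 to 1116, 778 and 568 (−1.14, SE 0.30, adjusted p = 0.0321). All 4 Id genes were lower in every PT-D library than in every PT-ND library. Id1, Id2 and Id4 passed in all 6 fits that left out 1 library, and Id3 in 2 of them, being lost without PT-ND replicate 2 or 3 and without PT-D replicate 2 or 3. The fifth gene, Smad9, which encodes a BMP Smad, was scarce, with 36.5, 35.1 and 28.8 normalized counts in PT-ND and 1.82, 10.5 and 7.2 in PT-D (−2.32, SE 0.60, adjusted p = 0.031). Its call was lost without any 1 of the PT-ND libraries and without PT-D replicate 3.

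Against T-ND, PT-D showed lower Id4 (log2 fold change −2.02, SE 0.27, adjusted p = 0.0164) and Id2 (−1.47, SE 0.22, adjusted p = 0.021), and the other 6 genes of the list did not pass. Id2 is also among the genes the study picked from these libraries. In term mice, the STZ log2 fold changes of the 8 genes ran from −2.27 to −0.29 with a median of −0.82, and none passed by edgeR, with 5 under an unadjusted p of 0.05 (all genes, 11.8%) and 3 called by DESeq2 (all genes, 2.1%). The STZ effect did not pass as different between preterm and term mice for any of the 8 genes by edgeR, with 4 under an unadjusted p of 0.05 (all genes, 24.5%) and 2 called by DESeq2 (all genes, 14%).

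**Figure D5:**
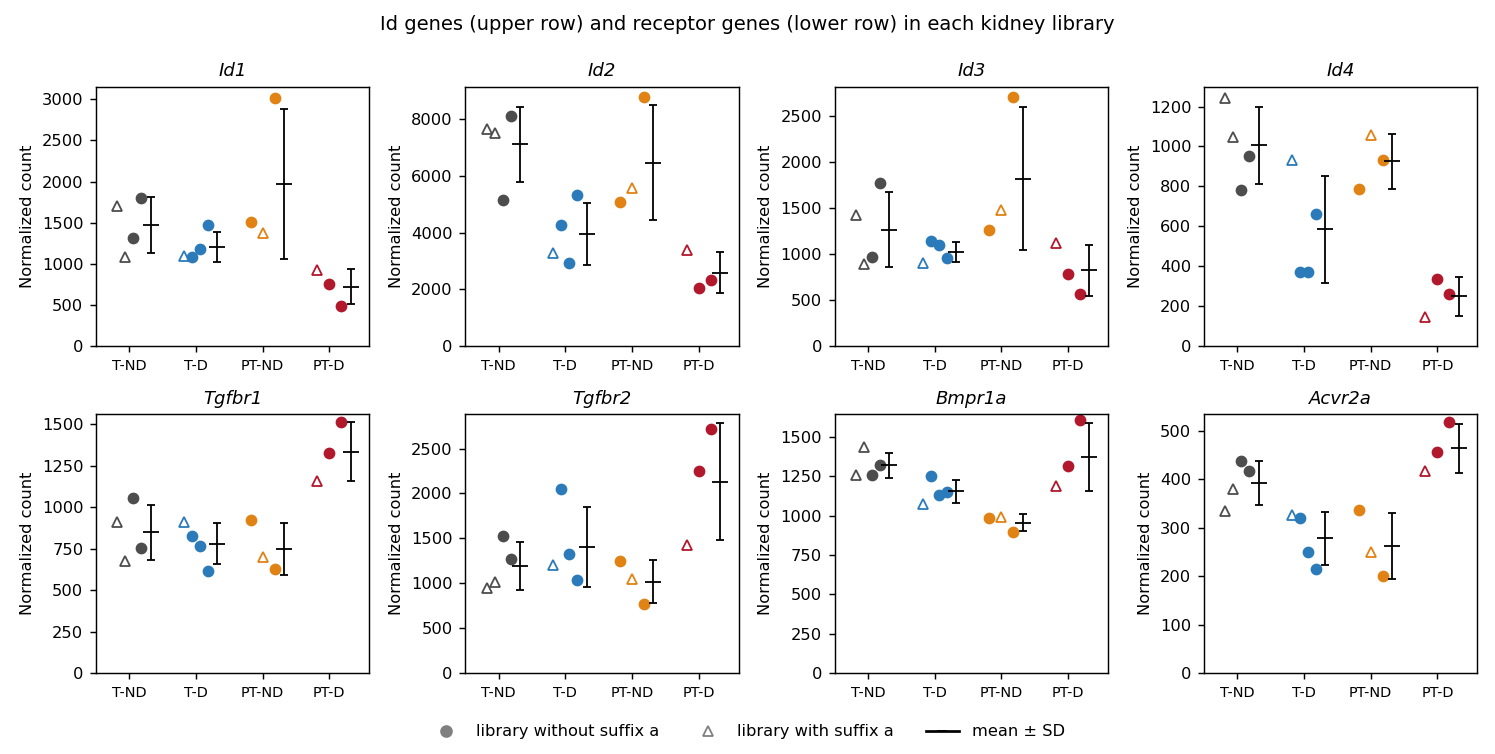
Normalized counts of Id1 to Id4 (upper row) and of 4 receptor genes (lower row) in the 14 libraries, with group mean and SD and open triangles for libraries with the suffix a. For each Id gene the PT-D points lie below the PT-ND points, and for each receptor gene above them.

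Among 18 tested antagonists and modulators, Crim1, which encodes a membrane protein that binds BMPs, rose in PT-D against PT-ND (log2 fold change 1.01, SE 0.16, adjusted p = 0.00593) and Sostdc1, a secreted antagonist of BMP and Wnt signals, fell (−1.16, SE 0.26, adjusted p = 0.0185). Bmper was also called higher, at fewer than 10 normalized counts on average. The other 15 did not pass, where 12.9% of all genes passed. Against T-ND, Sostdc1 was lower in PT-D too (−1.25, SE 0.27, adjusted p = 0.045). The STZ effect differed for Crim1 (1.27, SE 0.28, adjusted p = 0.0262) and in the opposite direction for Kcp (−1.28, SE 0.37, adjusted p = 0.0499), which encodes a secreted BMP enhancer. With 1 library left out, the Crim1 difference passed in 12 of 14 fits and the Kcp difference in 2. Nog, which encodes noggin, had log2 fold changes between −0.46 and 0.35 in the pairs of groups and did not pass in any comparison.

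Latency and activation genes were led by Lrrc32, which encodes GARP, a cell surface anchor of latent TGF-beta. It had 525, 422 and 497 normalized counts in PT-ND and 1149, 895 and 1117 in PT-D (log2 fold change 1.13, SE 0.16, adjusted p = 0.00403), and it passed in all 6 fits that left out 1 library. It was also higher in PT-D when compared with T-ND (1.00, SE 0.16, adjusted p = 0.0235), and its STZ effect was larger in preterm than in term mice by 1.38 (SE 0.39, adjusted p = 0.0466). Of the 14 fits without 1 library, the difference of STZ effects passed in 3. Itgav, the alpha-v integrin subunit that takes part in releasing TGF-beta, rose in PT-D against PT-ND (1.21, SE 0.28, adjusted p = 0.0204), with 7646 normalized counts in PT-D replicate 3 against 3663 and 3324 in the other PT-D libraries. The other 12 of the 14 genes did not pass in that comparison, so the number that passed was close to the 12.9% of all genes.

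Of 14 TGF-beta targets 2 rose, none fell and 12 did not pass between PT-D and PT-ND, close to the 12.9% of all genes that passed. The collagen gene Col4a1 had 5702, 3510 and 3864 normalized counts in PT-ND and 8849, 9081 and 11989 in PT-D (log2 fold change 1.19, SE 0.21, adjusted p = 0.00807). The protease inhibitor gene Timp1 rose by 1.68 (SE 0.43, adjusted p = 0.0287), and its ranges overlapped at their edge, with 176 normalized counts in PT-ND replicate 1 and 174 in PT-D replicate 1. Tgfbi, named for its induction by TGF-beta, had a log2 fold change of 0.02 (SE 0.40, adjusted p = 0.982). Against T-ND, where 2.76% of all genes passed, 2 targets rose in PT-D, Col4a1 (1.35, SE 0.23, adjusted p = 0.027) and the fibronectin gene Fn1 (1.21, SE 0.22, adjusted p = 0.0302). These and the other calls of list genes between PT-D and T-ND, like the call of Tgfb1, lay close to the threshold, and of the 7 fits that left out 1 library, Col4a1 passed in 2, Fn1 in 3, Lrrc32 in 3, Sostdc1 in 2, Ccn4 in 2, Id2 in 3 and Id4 in 5. Leaving out T-ND replicate 4 or PT-D replicate 3 ended each of these 7 calls. Tagln was close to 0 in this table, with at most 13.4 normalized counts.

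Among the 18 tested of 26 other ligands, Bmp6, an endothelial BMP, rose in PT-D against PT-ND (log2 fold change 0.82, SE 0.18, adjusted p = 0.0185) and Gdf10 fell (−2.14, SE 0.37, adjusted p = 0.00726), from 96.0, 81.4 and 91.2 normalized counts to 18.2, 27.8 and 14.4. The term groups, with 17.8 to 53.9 in T-ND and 6.4 to 60.0 in T-D, were below PT-ND too. The other 16 ligands did not pass, where 12.9% of all genes passed. Of the 15 Smads and intracellular regulators, Tgif1, a corepressor of Smads, rose (0.86, SE 0.23, adjusted p = 0.0325) and Smad9 fell, as given above. The other 13 did not pass, so the number that passed was close to the share of all genes. Smad6, the partner of Smad7 in the BMP branch, did not pass (0.17, SE 0.23, adjusted p = 0.688). Leaving out PT-ND replicate 2 or 3 ended the calls of Bmp6, Tgif1, Itgav, Timp1 and Sostdc1 between PT-D and PT-ND, while Gdf10, Crim1, Lrrc32 and Col4a1 passed in all 6 fits without 1 library. Of the 5 relatives of Ccn2 none passed in PT-D against PT-ND by edgeR, 1 had an unadjusted p under 0.05 (Ccn3, chosen for this reason) and DESeq2 called 1, where 29.1% and 18.9% of all genes did so. Against T-ND, Ccn4 was higher in PT-D (1.85, SE 0.35, adjusted p = 0.0325).

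Markers of cell types were counted between PT-D and PT-ND in the same way, where 12.9% of all genes passed. Of 6 podocyte markers 4 rose and none fell, and their summed normalized counts were 6020 to 10700 in PT-ND and 10500 to 13800 in PT-D. By histology, however, the study found podocyte density to be lower in PT-D than in PT-ND, and it found no difference from T-ND. Of 8 endothelial markers 3 rose (6490 to 10400 against 9730 to 12500), of 8 fibroblast, mesangial and smooth muscle markers 3 rose (1780 to 2780 against 2470 to 3830), and of 7 leukocyte markers 2 rose (1030 to 1700 against 1190 to 1470), with none lower. Of 7 proximal tubule markers 1 fell and of 7 collecting duct markers 1 fell, and the proximal tubule sums were 212000 to 217000 in PT-ND and 150000 to 195000 in PT-D. Of 7 urothelial markers none passed by edgeR, and 2 had an unadjusted p under 0.05, close to the share of all genes (29.1%). All 7 had log2 fold changes below 0, and their sums were 139 to 1050 in PT-ND and 75.7 to 484 in PT-D. In the libraries without the suffix this direction did not hold, with 5 of the 7 above 0. None of the podocyte markers passed in those libraries either. There 3 of 7 collecting duct markers and 2 of 5 markers of the loop of Henle and distal tubule fell, where 956 of 22177 genes passed. Between PT-D and T-ND, where 2.76% of all genes passed, 5 of the 6 podocyte markers rose as well, with sums of 5170 to 7880 in T-ND. So did 2 endothelial markers, 1 fibroblast marker and 1 leukocyte marker. In that comparison 1 of 5 markers of the loop of Henle and distal tubule fell, and 1 of 7 urothelial markers fell, with all 7 below 0. Without the suffix libraries none of these podocyte, endothelial, fibroblast, leukocyte and urothelial calls was made. The STZ effect was larger in preterm mice for 2 of 8 endothelial markers and 1 of 8 fibroblast, mesangial and smooth muscle markers (all genes, 6.23%). The part of these cell types in the differences of Ccn2, Tgfb1, Smad7, the receptors and the Id genes was not tested.

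For the 7 members whose mean reached 50 normalized counts, the genes whose log2 counts followed them most closely over the 14 libraries were looked up among 12169 genes of that abundance. They are a description of these libraries, which share group and depth. Ccn2 was followed by Lysmd2 (Pearson's r = 0.936) and D5Ertd579e (0.912), Bmp7 by Ctsa (0.933) and Pld3 (0.928), Smad7 by Zfp668 and Lrig3 (0.897 each), Tgfb1 by Myc (0.894) and Plxnd1 (0.878), Bmp4 by Glb1l2 (0.855) and Ngef (0.822), and Tgfb2 by Nlrp6 (0.8) and Lrsam1 (0.785). The genes nearest to Grem1 were a pseudogene, Gm28439 (0.861), and the mitochondrially encoded mt-Nd2 (0.849). Among the 9 genes themselves, the highest correlation over the 14 libraries was between Tgfb1 and Grem1 (0.581), followed by Ccn2 and Smad7 (0.463), and the lowest was between Bmp7 and Smad7 (−0.536).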

How the data were processed

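Whole kidneys had been kept in RNAlater and extracted with TRIzol, and poly-A libraries without strand information were sequenced. The authors trimmed the reads, aligned them to GRCm39 with STAR and, on GENCODE release 36, deposited for each library the raw count of uniquely mapping reads on every gene. Symbols, exon lengths and positions were taken from release 39, in which 56236 of the 56980 gene IDs were found without their version. Of the uniquely mapped reads 6.86% to 8.09% fell on more than 1 gene and were not counted.

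Genes whose counts summed to 10 or fewer were left out. Groups were compared in pairs and fitted without the other libraries, using TMM normalization and the quasi-likelihood test of edgeR 4.0.16 (R 4.3.3), with Benjamini-Hochberg adjustment over all genes tested, and the difference of STZ effects was fitted on all 14 libraries. Tests were two-sided, a gene passed at an adjusted p under 0.05, and p-values measure the spread between mice of a group. Normalized counts are counts scaled by TMM over the 14 libraries. The fits were tested on simulated data.

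The members and the lists were chosen with earlier results of these data known. The text names the 9 members in every comparison, up to 3 genes per list, comparison and direction with the smallest adjusted p among those that passed at a mean of 10 normalized counts or more, and Tgfbr1, Tgfbr2, Bmpr1a, Bmpr2, Nog, Id1, Id2, Id3 and Tgfbi whatever their result. Some items chosen by these rules are not reported here. Of the list genes outside these rules, Acvr1, Bmper, Smad6, Ccn3 and Tagln are named for a value seen. Genes most like a member were those with the highest Pearson correlation of log2 CPM (prior count 2).

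Alternatives to these choices were DESeq2 1.42.0, the upper quartile and RLE normalizations, filterByExpr in place of the total count filter, no filter, the library-name suffix as a covariate, a replicate block, a joint fit, the study's DEG rule (log2 fold change beyond 1), each library left out in turn and, added after seeing the data, the libraries without the suffix alone.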

Additional observations from a re-analysis of the deposited data

Results flagged for a closer look

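In T-D replicate 1 Bmp2 stood at 91.7 normalized counts, apart from the other 3 T-D libraries, which lay between 24.4 and 30.5. Of 36 groups of 4 libraries examined in this way, for 18 genes, this was the 1 that stood apart, and chance gives about 1 in 20. Smad7 is listed here because its STZ log2 fold change was 1.20 higher in preterm than in term mice (adjusted p = 0.0301 by edgeR's quasi-likelihood test). The same test of the difference gave 1.32 for Acvr2a, 0.71 for Bmpr1a, 0.95 for Tgfbr1, 1.27 for Crim1, −1.28 for Kcp and 1.38 for Lrrc32, with adjusted p-values from 0.0239 to 0.0499.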

How the results depend on the processing

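The number of the 9 genes that passed was 1 for PT-D against T-ND, and it became 2 by DESeq2 and with no filter on counts, 3 with the suffix as a covariate, and 0 under upper quartile normalization, in the joint fit of 14 libraries, in the libraries without the suffix alone and by the study's DEG rule. It was 0 for PT-D against T-D and became 3 by DESeq2, 2 with no filter and 1 in the joint fit. It was 0 for T-D against T-ND and became 1 by DESeq2. It was 1 for PT-D against PT-ND and became 2 by DESeq2 and with the filterByExpr filter. It was 0 for PT-ND against T-ND and became 2 by DESeq2 and 1 with no filter. It was 1 for the difference of STZ effects and became 3 by DESeq2, 2 with filterByExpr, no filter or the suffix as a covariate, and 0 without the suffix libraries. With 1 library left out at a time, the number ran from 0 to 1 for PT-D against T-ND and from 0 to 2 for the difference of STZ effects, and it did not change in the other 4. The cause of these shifts was not tested, apart from the fewer samples of some fits. Samples with the same replicate number were not more alike than others, with correlations of their deviations from −0.285 to 0.299 and 2 of 16 pairs over 0.1, so the numbers do not pair the mice. With a replicate block 0 genes passed for PT-D against T-ND and the other counts stayed as they were, and across all genes the calls went from 616 to 73 for PT-D against T-ND, from 43 to 87 for PT-D against T-D, from 18 to 6 for PT-ND against T-ND and from 1392 to 668 for the difference of STZ effects.

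Directions turned only for genes that had not passed. With the block, Bmp2 had log2 fold changes of 0.04 (PT-D against T-ND), −0.085 (T-D against T-ND), 0.006 (PT-D against PT-ND) and 0.021 (difference of STZ effects), and the difference for Grem1 was −0.13. Upper quartile normalization gave −0.018 for Tgfb2 and −0.020 for Smad7 in PT-D against T-ND, and −0.046 for Tgfb1 in PT-D against PT-ND. The suffix covariate gave −0.48 for the Grem1 difference. In the libraries without the suffix alone, an alternative chosen after seeing the data, PT-D against T-ND gave −0.046 for Bmp7, −0.31 for Ccn2 and −0.29 for Smad7, PT-D against T-D gave 0.20 for Tgfb2, 0.30 for Bmp2, 0.08 for Bmp4 and −0.082 for Ccn2, T-D against T-ND gave −0.51 for Bmp2, PT-D against PT-ND gave −0.017 for Tgfb1, PT-ND against T-ND gave −0.10 for Bmp2, and the differences of STZ effects were −1.66 for Grem1 and 0.42 for Bmp2. With 1 library left out, PT-D against T-ND ran from −0.16 to 0.30 for Tgfb2, −0.22 to 0.10 for Bmp2, −0.015 to 0.12 for Bmp7 and −0.11 to 0.21 for Smad7, and PT-D against T-D from −0.25 to 0.11 for Tgfb2, −0.37 to 0.49 for Bmp2 and −0.16 to 0.023 for Bmp4. T-D against T-ND ran from −0.10 to 0.35 for Tgfb2, −0.54 to 0.33 for Bmp2 and −0.20 to 0.30 for Ccn2, and PT-D against PT-ND from −0.03 to 0.11 for Tgfb1, −0.315 to 0.057 for Tgfb2, −0.018 to 0.565 for Tgfb3 and −0.32 to 0.13 for Bmp2. PT-ND against T-ND ran from −0.085 to 0.46 for Tgfb3 and −0.19 to 0.30 for Bmp2, and the differences of STZ effects from −0.37 to 0.89 for Grem1 and −0.46 to 0.47 for Bmp2.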
